A study of Mus musculus with 6 samples.

Results

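The comparison covers the last day of a retinoic acid (RA) treatment, the step from day 3 to day 4 of exposure, across every gene that could be named on the arrays. It uses 4 of the 6 arrays of the series, 2 for each day, and 19938 genes. A gene was taken from the probe sets that carry exactly 1 gene symbol, and where a gene had several, the brightest on average stood for it. All groups were R1 mouse embryonic stem cells, an established line for which the labels give no genetic change, grown as embryoid bodies from 35000 cells per ml in medium without Lif. RA at 2 μM was added when the embryoid bodies were 4 days old, which is day 0, and the groups compared had then spent 3 days or 4 days in RA. Each group holds 2 samples whose labels do not say whether they came from separate cultures. The study describes a repeat of the whole culture for its first and last day, and no source used here says so for day 3. The p-values therefore measure only how far the arrays of a day lie apart, and that spread may be technical. No untreated embryoid bodies of the same age were measured, and one more day of RA and one more day of culture cannot be told apart.

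Embryoid bodies are floating aggregates in which stem cells leave the pluripotent state and form cell types of the early embryo, among them blood, vessel, mesenchyme, epithelium and nerve. RA, made from vitamin A, enters the nucleus and binds receptors that sit on DNA, and it is known for switching on Hox genes and retinoid-handling enzymes. The first red blood cells of a mouse embryo are made in the yolk sac and carry embryonic forms of haemoglobin. Mesenchyme is the loose tissue that secretes collagens and other fibres between cells.

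During the last day 5593 genes passed the test (limma, Benjamini-Hochberg adjusted p of 0.05 or below, referred to here as called), which is 28.1% of the genes tested. Of these 3156 were higher at day 4 (15.8%) and 2437 were lower (12.2%). Most differences were small. Among the called genes 2622 of those higher and 1845 of those lower differed by under 0.5 on the log2 scale. A change of at least 2-fold was seen for 75 genes higher (0.376%) and 78 lower (0.391%), and at least 4-fold for 5 and 3. The day 4 arrays both lay beyond both day 3 arrays for 13252 genes (66.5%). With day 3 replicate 1, day 3 replicate 2, day 4 replicate 1 and day 4 replicate 2 left out in turn, the genes called higher numbered 1355, 2022, 2034 and 1635 and those lower 1373, 1628, 1926 and 1370, and further counts without an array are given below in this order. The counts within gene lists moved as well, and 103 of 147 that were above 0 changed by over 1.5 times without at least 1 of the arrays. Centring each array on its gene median turned the split from 56.4% higher among called genes to 42.4%, since it moved the median difference of all genes from 0.05 to 0.00.

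The 2 arrays of a day differed from each other less than the days did. Across the genes, which are not independent replicates, the SD of the difference was 0.117 within day 3 and 0.122 within day 4, against 0.263 to 0.289 for the pairs that cross the days. Among 13 housekeeping genes 1 was higher and 1 lower, with differences from -0.59 to 0.25. Their beta-actin (Actb) read 13.89 and 13.88 at day 3 and 13.89 and 13.89 at day 4 (log2 intensity). Of 21 genes of unrelated adult tissues 1 was called higher and 0 lower by limma (2 and 0 at an unadjusted p under 0.05). Of 1027 olfactory receptor genes, of which 998 had a mean below 6 on the log2 scale, 30 were called higher and 6 lower. The higher count was 7, 17, 26 and 8 with each array left out, and the split turned to 12 higher and 15 lower after median centring and 12 and 14 after cyclic loess.

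The largest rise was that of Gjb2, the gap junction protein connexin 26, which read 7.03 and 7.23 at day 3 and 10.05 and 9.91 at day 4. Its difference was 2.86 (SE 0.08, adjusted p = 3.25e-05, 7.24-fold), and the arrays of the days did not overlap. Papss2, which makes the activated sulphate used to build sulphated matrix sugars, read 7.80 and 7.64 and then 10.69 and 10.45 (difference 2.85, SE 0.09, 7.21-fold). The cytokine gene Il33 read 6.31 and 6.28 and then 9.15 and 8.88 (2.72, SE 0.09, 6.57-fold). Both Papss2 and Il33 had been near their day 3 level or lower at day 0, at 7.93 and 7.89 for Papss2 and 5.57 and 5.59 for Il33. Tnfsf13b, a ligand that B cells depend on, read 7.51 and 7.41 and then 9.98 and 9.76 (2.41, SE 0.08, 5.32-fold). Nfix, a nuclear factor I transcription factor, read 8.69 and 8.59 and then 10.78 and 10.56 (2.03, SE 0.10, 4.08-fold). These 5 genes were the ones that rose at least 4-fold.

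The remaining 10 of the 15 largest rises differed by 1.55 to 1.91. They were Prss35, a serine protease relative, Igfbp6, which binds insulin-like growth factors, Islr, a secreted marker of mesenchyme, the alcohol dehydrogenase Adh1, Gas6, a ligand of the Axl and Mer receptors, the calcium buffer Calb1, Kank4, the muscle protein Pdlim3, C1qtnf7 and the membrane glycoprotein Gpm6b. Not all of these were new to the embryoid bodies at day 4. Gas6 had read 9.68 and 9.63 at day 0 before it fell to 7.43 and 7.41 at day 3 and returned to 9.17 and 9.07. Pdlim3 started at 11.20 and 11.15, stood at 8.14 and 8.13 at day 3 and reached 9.82 and 9.74. Both thus stood below their day 0 level at either later day. The plot of the leading genes shows the arrays of all 3 days.

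**Figure D1:**
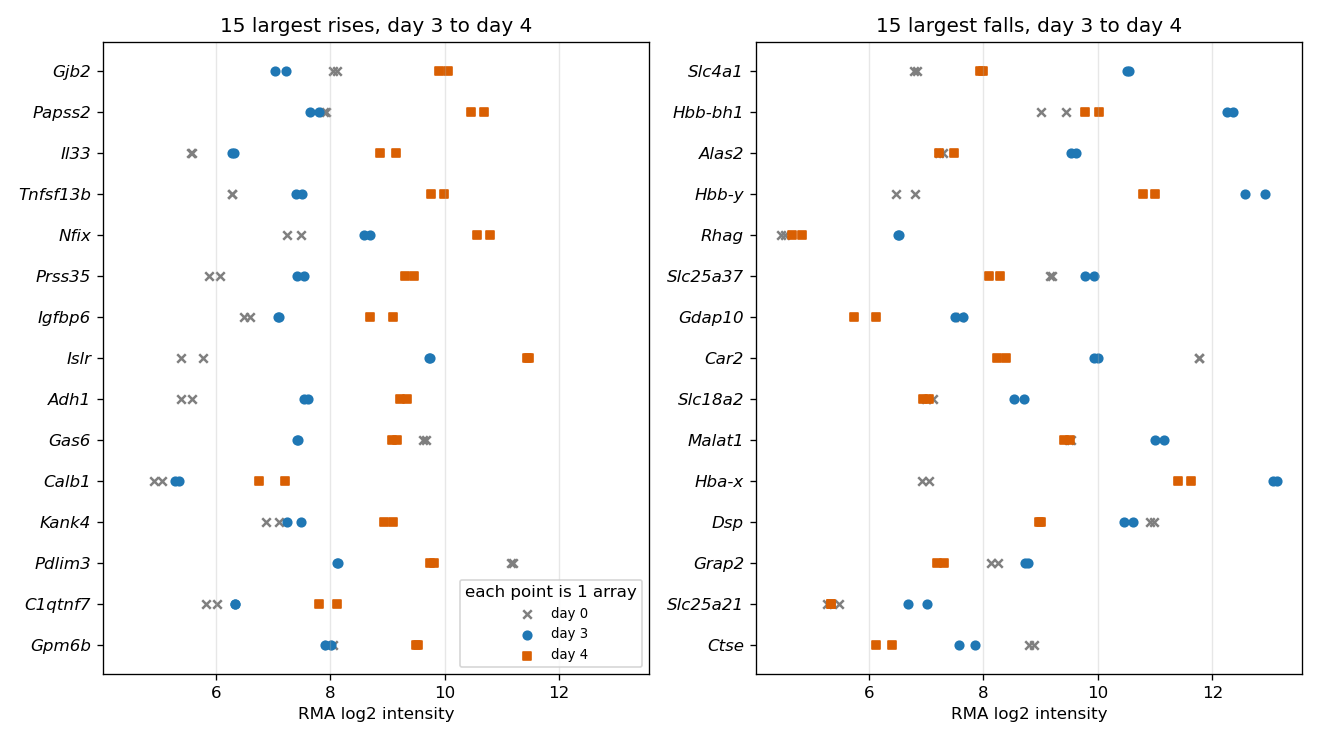
RMA log2 intensity of the 15 genes with the largest rise (left) and the 15 with the largest fall (right) from day 3 to day 4, with each point 1 array (crosses day 0, circles day 3, squares day 4). The day 4 arrays lie clear of the day 3 arrays for all 30 genes, as the rule for choosing them required, while day 0 may lie on either side.

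Genes known from red blood cells made up 8 of the 15 deepest falls. Slc4a1, the band 3 anion exchanger of the red cell membrane, read 10.55 and 10.52 at day 3 and 7.998 and 7.94 at day 4 (difference -2.56, SE 0.05, adjusted p = 8.85e-06, 5.91-fold), the largest fall among the genes. In these bulk samples fewer cells of a type and less RNA per cell cannot be told apart. Among 8 globin genes, 3 were lower, and these were the embryonic forms. Hbb-bh1, a beta-like chain, read 12.36 and 12.25 and then 10.02 and 9.78 (-2.40, SE 0.15). Hbb-y, the other embryonic beta chain, read 12.92 and 12.57 and then 10.99 and 10.79 (-1.85, SE 0.15), and the embryonic alpha chain Hba-x 13.13 and 13.06 and then 11.63 and 11.41 (-1.58, SE 0.09). All 3 stayed above their day 0 arrays, which for Hba-x read 7.05 and 6.92. The other 5 members did not fall by the test. Cygb, a globin of fibroblast-like cells, read 11.52 and 11.40 and then 11.53 and 11.47. Hbq1a was called higher (0.35) from levels below 5, a call that was lost without day 3 replicate 1 (adjusted p = 0.0519).

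Of 33 genes of haem synthesis and red cell maturation 16 were lower (48.5%), 2 higher and 15 not called, with a median difference of -0.21 beside 0.05 over all genes. Leaving out each array gave 14, 15, 16 and 14 lower. On the membrane side Rhag, part of the Rh complex, read 6.50 and 6.52 and then 4.66 and 4.84 (-1.76, SE 0.07), and the carbonic anhydrase Car2 9.93 and 10.004 and then 8.40 and 8.25 (-1.65, SE 0.07). The membrane skeleton genes Add2, Epb42 and Sptb differed by -0.97, -0.90 and -0.68. On the haem side Alas2, the first and rate-limiting enzyme of haem synthesis in red cells, read 9.61 and 9.52 and then 7.48 and 7.23 (-2.21, SE 0.09), which brought it to the day 0 arrays at 7.23 and 7.30. The mitochondrial iron importer Slc25a37 differed by -1.66, and the later enzymes Cpox and Ppox by -0.69 and -0.61. The transferrin receptor Tfrc, which takes up iron, read 10.94 and 11.05 and then 10.34 and 10.27. Not every step moved. The haem enzymes Alad and Urod read 12.49 to 12.61 and 10.83 to 10.91 over the 4 arrays and were not called, nor were the ferritin genes Fth1 and Ftl1, which many cell types use. Gypc (0.46) and Slc25a38 (0.28) were called higher, and the call of Slc25a38 was lost without any one of the 4 arrays.

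Of 21 transcription factors of red cells and blood stem cells 11 were lower (52.4%), 3 higher and 7 not called, with a median of -0.26. The lower count was 11, 9, 9 and 10 with each array left out. Klf1, which switches on the adult beta-globin programme, read 7.96 and 7.73 and then 6.66 and 6.64 (-1.19, SE 0.08, adjusted p = 0.000265). Gata1, the central factor of red cell and platelet lineages, read 7.30 and 7.36 and then 6.32 and 6.10 (-1.12, SE 0.08), below its day 0 arrays at 7.28 and 7.17. Nfe2 differed by -0.71, Tal1 by -0.63, Gfi1b by -0.59, Lmo2 by -0.48 and the Gata1 partner Zfpm1 by -0.39. Runx1, which marks the origin of blood stem cells but is also used in mesenchyme, was higher, at 8.87 and 8.51 and then 9.80 and 9.65 (1.03, SE 0.12). Gata2 read 10.46 and 10.54 and then 10.79 and 10.81 (0.30), although its call and that of Runx3 (0.30) were lost in part of the fits with an array left out, for Gata2 without day 3 replicate 1 and without day 4 replicate 2 (adjusted p = 0.0618 and 0.0516) and for Runx3 without day 3 replicate 1, day 3 replicate 2 or day 4 replicate 1 (0.0622 to 0.139).

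**Figure D2:**
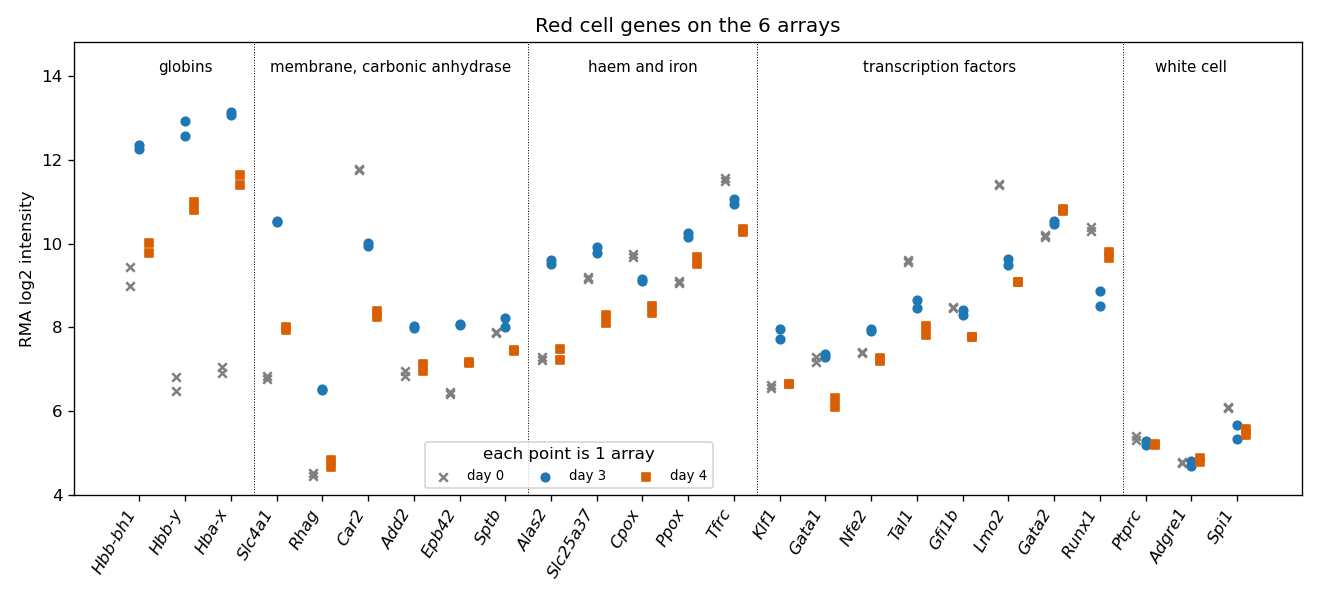
RMA log2 intensity of red cell genes by role, with each point 1 array (crosses day 0, circles day 3, squares day 4). Every gene up to Lmo2 was called lower at day 4, Gata2 and Runx1 were called higher, and the 3 white cell genes at the right stayed below 6 at day 3 and day 4.

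Promoter sequence of 250 bases before to 50 bases after the start was available for 21 of the 30 red cell genes called lower (RefSeq, GRCm38.p6). The letters GATAAG, the core that GATA factors bind, occurred on either strand in 8 of these 21 promoters (38.1%) and in 7.63% of the 15614 promoters of genes on the arrays. Windows in 4 of these promoters, picked once their values had been seen, are shown because they belong to a membrane gene, a transcription factor, a blood group protein and a haem enzyme, with the matched letters in capitals, 9 bases on each side and the strand that carries the match.
Rhag, chr17:40811108-40811131, minus strand: tatagtgttGATAAGagcagagga
Klf1, chr8:84901892-84901915, minus strand: gtcttccctGATAAGacccaggca
Kel, chr6:41704329-41704352, minus strand: tccctcactGATAAGcaggctcca
Cpox, chr16:58670112-58670135, minus strand: gcttggactGATAAGataggcgct
The match lay 32 bases before the start in Rhag, 81 in Klf1, 18 in Kel and 87 in Cpox. Cpox held a further match 3 bases after its start. CCACACCC, the letters bound by Klf1, occurred in 1 of the 21 promoters (4.76%) and in 4.37% of all. TATAAA occurred in 23.8% of the 21 and 13.6% of all, TCACNCCAC in 4.76% and 1.4%, TTTCGCGC or TTTGGCGC in 4.76% and 1.31%, and TGACGTCA in 0 and 2.72%. These matches are a description of the letters in a window and not of binding. Promoters of red cell genes that were not called lower were not counted apart. Whether the GATAAG share goes with the fall or with the choice of red cell genes was not tested. Among the genes that changed at least 2-fold, GATAAG was present in 8.33% of 60 promoters of genes that were higher and 12.8% of 47 of genes that were lower.

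Most white cell markers were low. Of 23 such genes 15 had a mean below 6, among them the pan-leukocyte gene Ptprc (5.20 and 5.28, then 5.23 and 5.20) and the macrophage gene Adgre1 (4.69 and 4.82, then 4.79 and 4.87). The list held 3 genes called lower and 1 called higher, Csf1r (0.24). The call of Csf1r was lost after median centring, after cyclic loess and in part of the fits with an array left out. The lower genes were Cd68, a lysosomal protein, at 8.11 and 7.77 and then 7.01 and 7.18, the stem cell factor receptor Kit at 9.54 and 9.59 and then 8.88 and 8.87, and the platelet integrin Itga2b (-0.49), whose call was lost without day 3 replicate 1 (adjusted p = 0.152) and without day 4 replicate 2 (0.183). Kit is not limited to blood, and Cd34, shared by blood and vessel precursors, read 10.23 and 10.31 and then 10.19 and 10.10 and was not called.

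Endothelial genes were also lower more often than higher. Of 33 receptors and junction genes of vessels 13 were lower (39.4%), 2 higher and 18 not called, with a median of -0.16. Leaving out each array gave 10, 10, 10 and 9 lower. Tek, the angiopoietin receptor, read 8.59 and 8.81 and then 7.77 and 7.73 (-0.95, SE 0.11). Nrp1, a co-receptor of vascular growth factor and of semaphorins, read 10.91 and 10.89 and then 10.14 and 10.04 (-0.81, SE 0.06), and Plvap, which forms the diaphragms of vessel pores, 9.74 and 9.78 and then 8.96 and 8.997. Kdr, the main receptor of vascular growth factor, read 9.99 and 10.09 and then 9.96 and 9.91, a difference of -0.11 that was not called. Apln, the peptide ligand apelin, was higher (0.37, adjusted p = 0.00316).

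The fibroblast and mesenchyme list had the highest share of members called higher, 13 of 25 (52%), with 3 lower and a median of 0.29. The higher count was 8, 10, 8 and 9 with each array left out. Islr read 9.74 and 9.73 and then 11.48 and 11.45 (1.73, SE 0.11). Tcf21, a transcription factor of visceral mesenchyme and epicardium, read 9.61 and 9.62 and then 10.61 and 10.67 (1.02, SE 0.10), and Postn, the matrix protein periostin, 9.25 and 9.04 and then 10.16 and 9.85 (0.86, SE 0.15). Ogn, a small proteoglycan, read 4.88 and 4.72 and then 6.16 and 5.66 (1.11, SE 0.15), and so stayed dim, near or below 6, on both days. Dcn was called higher as well, but the call was lost without any one of the day 3 or day 4 arrays, with differences of 0.54 to 0.66. On the other side the lowest difference in the list was -0.98. The receptor gene Pdgfrb, a fibroblast marker, was called lower (limma adjusted p = 0.0294). Its call was lost without any one of the day 3 or day 4 arrays, with differences of -0.23 to -0.29. The most abundant member, the filament gene Vim, read 13.21 and 13.19 and then 13.11 and 13.13 and was not called.

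Of 34 collagen genes 15 were higher (44.1%) and 0 lower by limma (20 and 1 at an unadjusted p under 0.05). With each array left out 6, 6, 11 and 8 were higher, and after median centring 8 were higher and 1 lower. Col6a1 read 7.46 and 7.42 and then 8.58 and 8.28 (0.99, SE 0.10), and Col6a2, which pairs with it in the beaded filaments of collagen VI, 7.40 and 7.41 and then 8.29 and 8.29 (0.89, SE 0.05). The fibre-forming Col1a2, picked once its value had been seen, read 8.81 and 8.81 and then 9.29 and 9.28 (0.48), and Col8a1 5.83 and 5.91 and then 6.31 and 6.39 (0.48). Other fibre-forming collagens were less steady. The call of Col1a1 was lost without day 3 replicate 2 (difference 0.24). That of Col3a1 was lost after median centring, after cyclic loess and without any one of the day 3 or day 4 arrays (0.21 to 0.30). Of 45 genes that cut or crosslink the matrix 17 were higher (37.8%) and 5 lower, and the higher count was 11, 11, 11 and 10 with each array left out. Timp3, an inhibitor of matrix proteases, read 10.90 and 11.04 and then 11.81 and 11.75 (0.81, SE 0.09). The lysyl oxidase relative Loxl1, which crosslinks elastin, read 9.17 and 9.14 and then 10.12 and 10.03 (0.92, SE 0.17), a call that was lost without day 4 replicate 1 (adjusted p = 0.0508). The proteases Adamts12 (-0.73) and Adamts1 (-0.53) were lower.

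Matrix glycoproteins split between the directions, with 19 of 48 higher (39.6%) and 9 lower (18.8%). The higher count was 7, 10, 11 and 7 with each array left out and the lower count 8, 9, 9 and 9. Efemp1, a fibulin, read 8.59 and 8.52 and then 9.68 and 9.54 (1.06, SE 0.07). Fbn2, a fibrillin of embryonic tissue, read 10.31 and 10.34 and then 9.58 and 9.51 (-0.78, SE 0.05). Vcan, the large proteoglycan versican, read 11.77 and 11.69 and then 11.04 and 10.97 (-0.72, SE 0.06). The lowest difference in this list was -0.98, in another member. The basement membrane, the sheet on which epithelia and vessels rest, differed from the collagens in its counts, with 11 of 25 members lower (44%) and 3 higher. The lower count was 6, 7, 8 and 7 with each array left out. Lama2, a laminin chain, read 8.13 and 8.01 and then 7.18 and 7.12 (-0.92, SE 0.08), Lama1, the laminin chain of the earliest membranes, 8.07 and 8.04 and then 7.35 and 7.33 (-0.71, SE 0.05), and Frem1 7.84 and 7.95 and then 7.03 and 7.10. The difference between these lists was not tested.

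**Figure D3:**
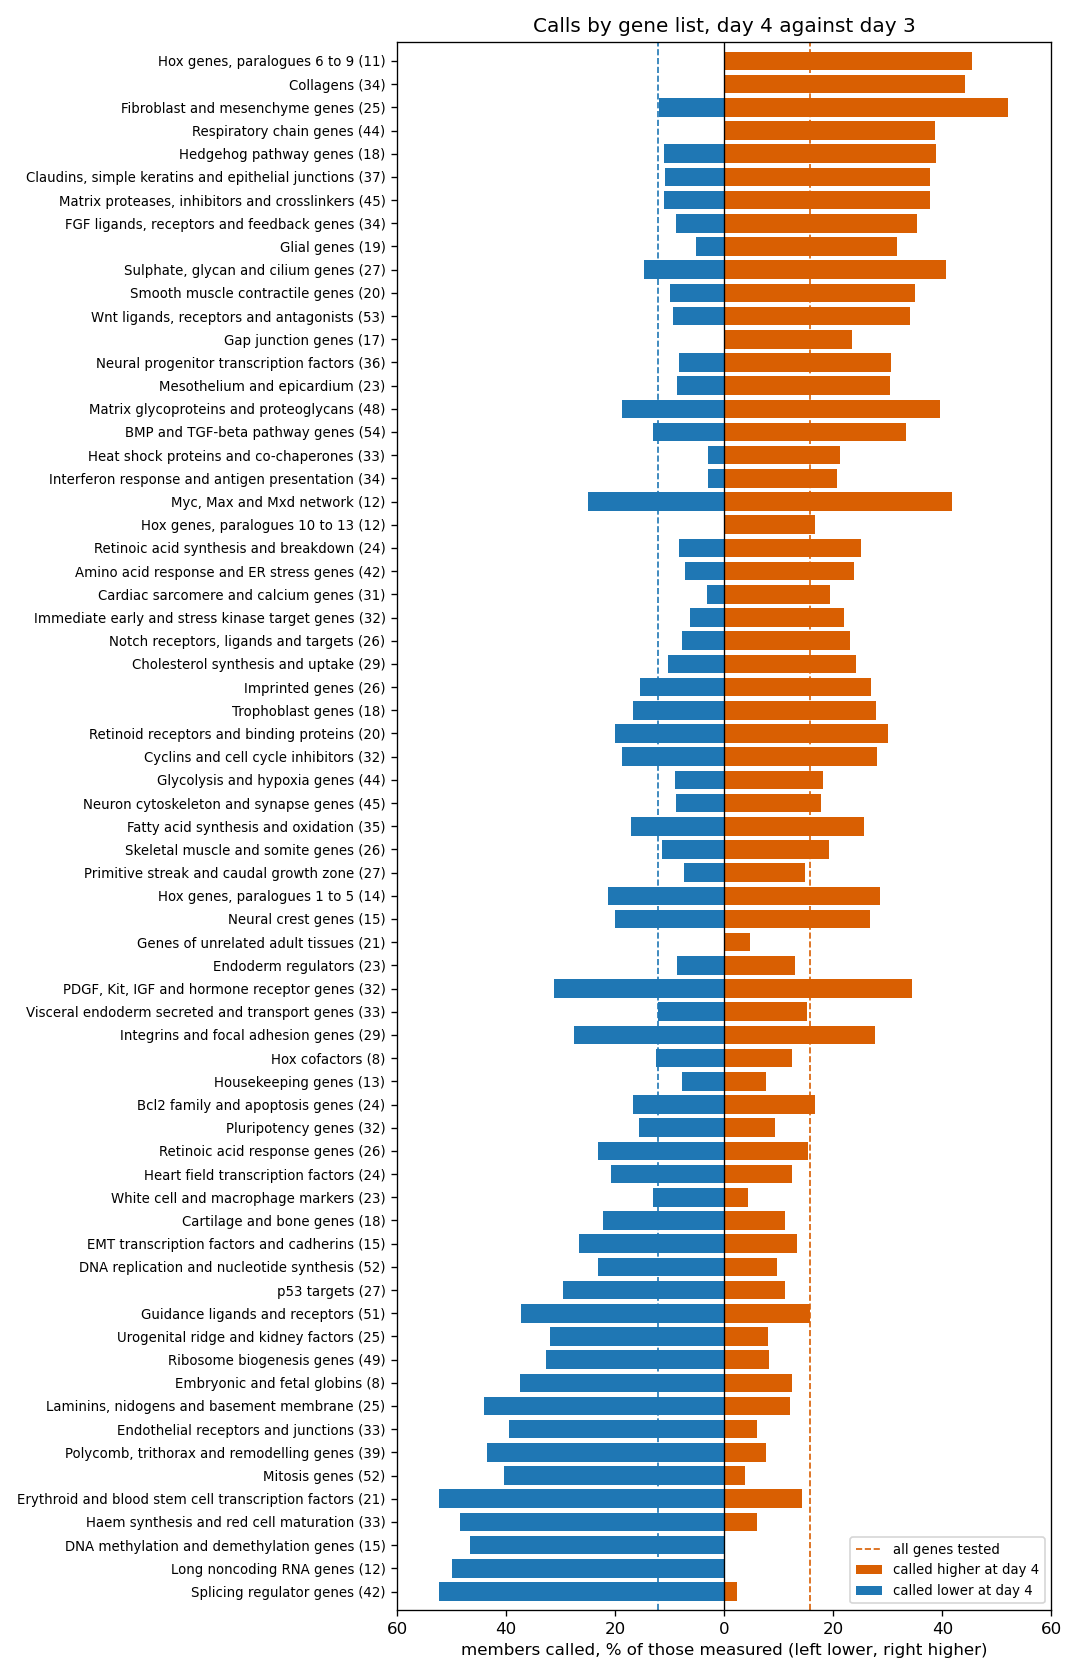
Share of the measured members of each gene list called higher (right) or lower (left) at day 4 against day 3, with the number measured in brackets and dashed lines at the shares over all genes tested, 15.8% and 12.2%, and lists ordered by the share higher minus the share lower. Hox genes 6 to 9, collagens and fibroblast genes stand at the top, and long noncoding RNA, splicing and DNA methylation genes at the bottom.

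Of 20 smooth muscle genes 7 were higher (35%) and 2 lower. The higher count was 3, 6, 7 and 4 with each array left out. Actg2, the actin of gut smooth muscle, read 7.37 and 7.22 and then 8.38 and 8.65 (1.22, SE 0.11), and Itga8, an integrin of mesenchymal and smooth muscle cells, 8.52 and 8.46 and then 9.34 and 9.21 (0.78, SE 0.11). Acta2, the more abundant smooth muscle actin, read 11.88 and 11.83 and then 12.08 and 12.24 and was not called. Among 31 genes of the cardiac sarcomere and its calcium handling 6 were higher (4, 2, 6 and 3 with each array left out) and 1 lower. Among 24 heart field transcription factors 3 were higher and 5 lower (3, 4, 5 and 4). The sarcomere list had 19.4% higher and 3.23% lower and the heart field list 12.5% and 20.8%, beside 15.8% and 12.2% over all genes. Tbx2, a repressor, read 9.89 and 9.74 and then 10.64 and 10.69 (0.85, SE 0.07), while Tbx20, needed for heart growth, read 8.94 and 8.69 and then 7.74 and 7.65 (-1.12, SE 0.09). Gata6, the brightest of that list, read 12.80 and 12.74 and then 12.81 and 12.80 and was not called.

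Other mesoderm groups were mixed. Of 25 urogenital factors 8 were lower (32%) and 2 higher, and the lower count was 7 whichever array was left out. Lhx1, of the early kidney and the head organiser, read 8.79 and 9.20 and then 7.73 and 7.91 (-1.17, SE 0.15), Emx2 differed by -0.63 and Lhx9 by -0.61. The kidney and mesothelium factor Wt1 stayed at 12.04 and 12.10 and then 12.08 and 12.09. Of 23 mesothelium and epicardium genes 7 were higher and 2 lower, the latter being Aldh1a2 and Tbx18. Scx, the tendon transcription factor, read 7.98 and 7.995 and then 9.14 and 8.85 (1.01, SE 0.10), while the somite factor Eya1 differed by -0.44.

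Epithelial junction genes held both falls and rises. Desmoplakin (Dsp), a protein of the desmosomes that rivet epithelial and heart cells together, read 10.46 and 10.62 and then 8.9997 and 8.98 (-1.55, SE 0.07, adjusted p = 9.28e-05), the desmosomal cadherins were lower too, with Dsg2 at 8.58 and 8.48 and then 7.66 and 7.55 (-0.93, SE 0.06), and Dsc2 at 9.40 and 9.44 and then 8.85 and 8.77 (-0.61, SE 0.06). Jup, which desmosomes share with other junctions, read 11.57 and 11.64 and then 11.63 and 11.68 and was not called. In the whole list of 37, 14 were higher (37.8%) and 4 lower, and the higher count was 4, 12, 12 and 2 with each array left out. Krt19, a simple keratin, read 10.33 and 10.53 and then 11.15 and 11.24 (0.76, SE 0.08), while the brighter Krt8 read 11.46 and 11.59 and then 11.53 and 11.53. Gap junction genes had 4 of 17 higher and 0 lower by limma (7 and 1 at an unadjusted p under 0.05). Beside Gjb2, Gjb6, the connexin 30 gene, read 4.92 and 4.94 and then 5.61 and 5.41 (0.58, SE 0.08), below 6 on both days. Gja1, the abundant connexin 43, stayed at 11.14 and 11.14 and then 11.15 and 11.14. Snai1, a repressor of E-cadherin, read 9.18 and 9.17 and then 9.83 and 9.94 (0.70, SE 0.06), and Zeb2, a repressor of the same target, 9.55 and 9.48 and then 8.84 and 8.77 (-0.71, SE 0.06).

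Nerve and glia genes gave few large changes. The shares called in the neuronal list, 17.8% higher and 8.89% lower, were near the 15.8% and 12.2% over all genes. Among 45 neuronal genes 8 were higher and 4 lower, with 16 members below 6, and 4, 3, 7 and 5 were higher with each array left out. Stmn2, which regulates microtubules in growing axons, read 8.77 and 8.80 and then 10.30 and 10.12 (1.43, SE 0.07), close to its day 0 arrays at 10.59 and 10.66. The stathmin Stmn3 (0.80) and the neurofilament Nefl (0.82) were also higher, and the glutamate decarboxylase Gad2 lower (-0.40). The neuron marker Dcx was called lower as well (limma adjusted p = 0.0174). Its call was lost without any one of the day 3 or day 4 arrays, with differences of -0.47 to -0.53. Among 19 glial genes 6 were higher (31.6%) and 1 lower, led by Nfix, and Fabp7, the lipid carrier of radial glia, read 9.16 and 9.29 and then 10.23 and 10.15 (0.96, SE 0.07). Outside the lists, Chrna3, Chrnb4, Ache and Reln were picked because they fell, and they stand for no group. The nicotinic receptor subunits Chrna3 and Chrnb4 read 9.64 and 9.89 and 9.64 and 9.93 at day 3, and 8.21 and 8.44 and 8.55 and 8.74 at day 4. The acetylcholine esterase Ache (-1.11) was lower too, as was the vesicular monoamine transporter Slc18a2 (-1.63), one of the 15 largest falls. Reln, which guides migrating neurons, differed by -1.34 (SE 0.07).

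Hox genes, the RA-responsive genes that set position along the body axis, differed in counts by paralogue number, a difference that was not tested. Of 14 genes of paralogues 1 to 5, 4 were higher (1, 3, 3 and 2 with each array left out) and 3 lower. Of 11 of paralogues 6 to 9, 5 were higher (45.5%) and 0 lower by limma (7 and 2 at an unadjusted p under 0.05), with 1 called lower without day 4 replicate 2. Of 12 of paralogues 10 to 13, 2 were higher and 0 lower (5 and 0). The shares higher were 28.6% for paralogues 1 to 5 and 16.7% for paralogues 10 to 13, the latter near the 15.8% over all genes. The shares lower were 21.4% and 0 beside 12.2% over all genes. Hoxb1, an early responder to RA, read 10.14 and 10.58 and then 8.84 and 9.19 (-1.35, SE 0.18), and Hoxd4 9.63 and 9.54 and then 8.60 and 8.78 (-0.89, SE 0.08). Hoxb5 read 10.25 and 10.31 and then 10.77 and 10.77 (0.49), Hoxc6 9.60 and 9.74 and then 10.28 and 10.33 (0.64), Hoxc8 11.09 and 11.18 and then 11.79 and 11.71 (0.61), and Hoxb13 7.26 and 7.31 and then 7.95 and 8.13 (0.76). Hoxb2 read 11.27 and 11.20 and then 11.19 and 11.28 and was not called.

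Of 24 genes that make and destroy RA 6 were higher and 2 lower, and the higher count was 1, 3, 4 and 2 with each array left out. Adh1, which oxidises retinol, read 7.54 and 7.62 and then 9.22 and 9.34 (1.70, SE 0.08), while Aldh1a2, which makes RA itself in mesoderm, read 10.46 and 10.49 and then 9.88 and 9.72 (-0.67, SE 0.07). Among 20 receptors, cofactors and binding proteins 6 were higher (4, 5, 4 and 3 with each array left out) and 4 lower. The RA receptor Rarg read 9.03 and 9.10 and then 9.58 and 9.46 (0.46), the binding protein Crabp1 10.64 and 10.60 and then 11.09 and 11.15 (0.50), and the corepressor Nrip1 10.18 and 10.30 and then 9.68 and 9.64 (-0.58). Rarb, a classic RA target, stayed at 12.11 and 12.17 and then 12.30 and 12.28 and was not called.

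Of 53 Wnt pathway genes 18 were higher (34%) and 5 lower, and the higher count was 10, 15, 16 and 10 with each array left out. Wnt2b read 8.88 and 9.02 and then 10.13 and 10.15 (1.19, SE 0.07), Wnt11 8.66 and 8.77 and then 9.65 and 9.72 (0.97, SE 0.06), and the Wnt inhibitor Wif1 5.88 and 5.99 and then 6.90 and 6.75 (0.89). Of 54 BMP and TGF-beta genes 18 were higher (33.3%) and 7 lower, and the higher count was 12, 15, 13 and 15. Gdf6, a BMP ligand of joints and eye, read 8.61 and 8.503 and then 9.98 and 9.79 (1.33, SE 0.08), Tgfb3 11.67 and 11.57 and then 12.60 and 12.53 (0.95, SE 0.07), and Bmp2 7.58 and 7.47 and then 6.58 and 6.57 (-0.95, SE 0.06).

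Of 34 FGF genes 12 were higher (35.3%) and 3 lower, and the higher count was 7, 9, 10 and 5 with each array left out. Fgf1 read 6.68 and 6.70 and then 7.80 and 7.43 (0.92, SE 0.11), and Fgf10, a mesenchymal signal to epithelium, 8.80 and 8.98 and then 8.24 and 7.98 (-0.78, SE 0.10). Of 18 hedgehog genes 7 were higher (4, 6, 6 and 3 with each array left out) and 2 lower. The ligand Shh read 6.95 and 7.14 and then 7.71 and 7.94 (0.78, SE 0.09), and Gli3, mainly a repressor of the pathway, 11.40 and 11.37 and then 10.76 and 10.82 (-0.60, SE 0.06). Of 51 guidance genes 19 were lower (37.3%) and 8 higher, and the lower count was 9, 14, 15 and 11. Epha4, a receptor of ephrins, read 10.51 and 10.51 and then 9.38 and 9.41 (-1.12, SE 0.06), and Slit2, a repellent, 10.39 and 10.32 and then 9.49 and 9.51 (-0.85, SE 0.09). Ntn1, the attractant netrin 1, read 7.09 and 7.21 and then 8.42 and 8.28 (1.20, SE 0.10).

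Genes of cell division differed by small amounts. Of 52 mitosis genes 21 were lower (40.4%), 2 higher and 29 not called, and the lower count was 10, 15, 15 and 13 with each array left out. The kinetochore genes Cenpe (9.77 and 9.70, then 8.99 and 8.95) and Cenpf (9.99 and 9.99, then 9.34 and 9.29) and the proliferation marker Mki67 (11.90 and 11.82, then 11.19 and 11.19) differed most, by -0.77, -0.67 and -0.67. The cyclin Ccna2, as bright as Mki67, read 12.39 and 12.34 and then 12.40 and 12.38. Of 52 replication and nucleotide genes 12 were lower and 5 higher, and of 49 ribosome biogenesis genes 16 were lower (32.7%) and 4 higher. The lower counts of these 2 lists were 4, 9, 7 and 5 and 8, 9, 10 and 9. Taf1d, which is also the host of small nucleolar RNAs, read 12.17 and 12.17 and then 11.36 and 11.29 (-0.85, SE 0.05). The cell cycle inhibitor Cdkn1c read 10.62 and 10.64 and then 11.25 and 11.11 (0.56, SE 0.07).

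Of 32 pluripotency genes 24 were not called on the last day, with 3 higher (9.38%) and 5 lower (15.6%). The shares over all genes were 15.8% and 12.2%. The 3 deepest falls were in RNA-binding and chromatin genes of early cells. Lin28b, which blocks the maturation of let-7 microRNAs, read 8.54 and 8.45 and then 7.43 and 7.46 (-1.05, SE 0.06). Sall4 read 8.62 and 8.71 and then 7.57 and 7.91 (-0.92, SE 0.11), and Trim71, itself a let-7 target, 8.14 and 8.30 and then 7.37 and 7.25 (-0.90, SE 0.08). Igf2bp1, an RNA-binding protein of the same fetal programme, read 11.93 and 11.93 and then 11.23 and 11.33 (-0.65, SE 0.06), while Hmga2, another let-7 target, stayed at 12.17 and 12.11 and then 12.15 and 12.16.

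Genes of microRNAs were called lower more often than higher. MicroRNAs are short RNAs cut from hairpins in longer primary transcripts, and they pair with messenger RNAs through a seed at bases 2 to 8. Of 302 gene symbols in the class, 298 were hairpin genes and 4 host genes, and 79 were lower (26.2%), 16 of them at least 2-fold, with 6 higher and a median of -0.05. With each array left out 57, 79, 65 and 58 were lower and 2, 5, 9 and 1 higher. Among the hairpin genes 76 were lower and 6 higher, and of the 100 with a mean of 6 or more 32 were lower and 5 higher. Whether a probe set on a hairpin gene reads the primary transcript, the hairpin or the mature microRNA was not tested, and the RNA columns the study used retain mainly longer RNA.

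The sequences below are mature microRNAs of genes called lower in the miR-17 cluster and in the let-7 and miR-130 seed families, with the seed in capitals, so that shared seeds can be seen (RefSeq, GRCm38.p6). The first 5 come from 1 cluster, the miR-17 cluster, known for promoting growth of early cells. These 5 lie within chr14:115043684-115044380 on the plus strand. miR-130a-3p lies at chr2:84741116-84741137 on the minus strand and let-7d-5p at chr13:48536078-48536099 on the minus strand.
miR-17-5p: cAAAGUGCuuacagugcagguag
miR-20a-5p: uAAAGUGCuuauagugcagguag
miR-18a-5p: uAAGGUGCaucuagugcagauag
miR-19a-3p: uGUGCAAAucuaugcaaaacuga
miR-19b-3p: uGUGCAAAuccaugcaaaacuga
miR-130a-3p: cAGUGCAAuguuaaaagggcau
miR-301a-3p: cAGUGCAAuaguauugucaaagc
let-7d-5p: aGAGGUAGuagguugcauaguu
let-7e-5p: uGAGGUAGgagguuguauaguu
let-7f-5p: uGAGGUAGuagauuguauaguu
let-7c-5p: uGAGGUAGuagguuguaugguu
miR-98-5p: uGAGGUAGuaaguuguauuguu
The 5 hairpin genes of the miR-17 cluster that were measured and matched in RefSeq were all lower, and members outside these 5 were not looked at. Mir18 read 8.77 and 8.72 and then 7.20 and 7.02 (-1.64, SE 0.07, adjusted p = 9.28e-05), Mir19b-1 7.59 and 7.58 and then 5.85 and 6.03 (-1.64), Mir19a 7.64 and 7.004 and then 6.03 and 5.51 (-1.55), Mir20a 6.08 and 5.95 and then 4.96 and 5.22 (-0.92) and Mir17 6.07 and 6.00 and then 5.23 and 5.27 (-0.79). Their host gene Mir17hg, one transcript that carries them all, read 8.01 and 7.65 and then 6.32 and 6.34 (-1.50). The members and their host thus share a transcript and are not independent. A cluster on chromosome X with genes of the same seeds, Mir363 to Mir106a, had 1 of 5 lower and a median of -0.07. Among all measured genes matched in RefSeq, 3 of 6 with the seed AAAGUGC and 2 of 3 with GUGCAAA were lower. The 3 measured genes with the seed AGUGCAA were also lower. They were Mir130a (-1.40) and Mir301 (-0.66), which lie on chromosomes 2 and 11, and Mir130b (limma adjusted p = 0.0268), whose sequence is not printed. The call of Mir301 was lost without day 3 replicate 1. That of Mir130b was lost without day 3 replicate 1 (difference -0.25) and without day 4 replicate 2 (-0.32).

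Of 9 genes with the let-7 seed GAGGUAG 5 were lower and 0 higher by limma (5 and 0 at an unadjusted p under 0.05). Mirlet7d read 7.95 and 7.68 and then 6.68 and 6.51 (-1.22), Mirlet7e 8.34 and 7.98 and then 7.14 and 7.27 (-0.96), and Mirlet7f-1 5.42 and 5.42 and then 4.51 and 4.44 (-0.94). Mirlet7c-1 (-0.79) and Mir98 (-0.77) were lower from levels near 5 to 6, and the call of Mir98 was lost without day 4 replicate 2 (adjusted p = 0.11). The other 4, Mirlet7a-1, Mirlet7f-2, Mirlet7g and Mirlet7i, were not called. Mirlet7a-1 lies in the same cluster as Mirlet7d and Mirlet7f-1 and read 4.83 and 4.76 and then 4.69 and 4.83.

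A second group of neighbours lies on chromosome 12 in an imprinted region, next to the long RNA genes Meg3 and Rian. Of the 29 hairpin genes in its larger cluster 23 were lower and 0 higher by limma (27 and 0 at an unadjusted p under 0.05), with a median of -0.68. Mir377 read 9.23 and 8.82 and then 7.70 and 7.58 (-1.38), Mir382 9.18 and 8.76 and then 7.91 and 7.82 (-1.10) and Mir329 8.73 and 8.04 and then 7.34 and 7.10 (-1.16). Meg3 read 11.47 and 11.14 and then 10.29 and 10.33 (-0.99, SE 0.10), and Rian 7.80 and 7.56 and then 6.85 and 6.72 (-0.90). In each of these genes day 3 replicate 1 was the higher of the day 3 arrays, and both day 3 arrays lay above both day 4 arrays. Dlk1, the protein-coding gene of the same region expressed from the other parental copy, read 12.93 and 13.01 and then 13.15 and 13.23. Its difference of 0.22 (adjusted p = 0.044) was not called without any one of the day 3 or day 4 arrays (0.0695 to 0.201). Not every cluster held calls. The 5 genes of the miR-302 cluster, which marks pluripotent cells, and the 3 of the miR-183 cluster had 0 called by limma in either direction, and 0 at an unadjusted p under 0.05.

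**Figure D4:**
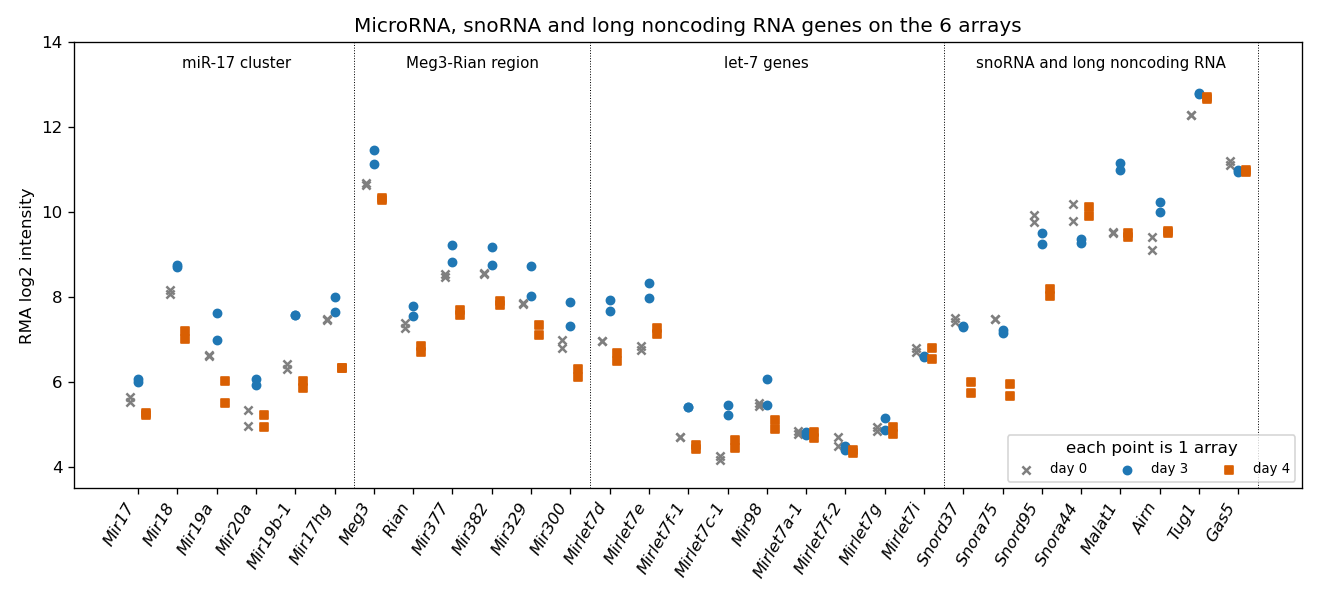
RMA log2 intensity of microRNA, small nucleolar RNA and long noncoding RNA genes, with each point 1 array (crosses day 0, circles day 3, squares day 4). The genes shown of the miR-17 cluster and the Meg3-Rian region and 5 of the 9 let-7 genes sit lower at day 4 than at day 3, while the other 4 let-7 genes, Tug1 and Gas5 were not called.

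Small nucleolar RNAs, which guide chemical marks on ribosomal RNA and are mostly cut from introns, were also lower more often than higher. Of 54 such genes 25 were lower (46.3%), 8 of them at least 2-fold, and 4 were higher, with a median of -0.26. With each array left out 17, 21, 19 and 20 were lower and 1, 1, 4 and 1 higher. Snord37 read 7.33 and 7.30 and then 6.01 and 5.75 (-1.44), Snora75 7.17 and 7.24 and then 5.67 and 5.96 (-1.39) and Snord95 9.52 and 9.26 and then 8.04 and 8.20 (-1.27). Snora44 was higher (0.70), a call lost without day 4 replicate 2 (adjusted p = 0.0574). Whether the probe sets read these small RNAs or their longer precursors was not tested, and the RNA columns retain mainly longer RNA. By annotation, the 78 genes lower by at least 2-fold comprised 44 protein-coding, 10 long noncoding, 14 microRNA and 8 small nucleolar RNA genes and 2 others, while 72 of the 75 higher were protein-coding.

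Of 12 long noncoding RNA genes, some kept in the nucleus and some spliced hosts of small nucleolar RNAs, 6 were lower (50%) and 0 higher by limma (8 and 0 at an unadjusted p under 0.05), with a median of -0.48, and leaving out each array gave 5, 6, 7 and 6 lower. Malat1, a nuclear RNA of speckles where splicing factors gather, read 11.16 and 11.004 and then 9.42 and 9.51 (-1.62, SE 0.07), which was its level at day 0 (9.50 and 9.54). Snhg11 and the host gene Snhg5 differed by -1.04 and -0.53. Tug1 read 12.81 and 12.79 and then 12.71 and 12.66, and Gas5 10.96 and 10.99 and then 10.95 and 10.996, and neither was called. Rny1, a cytoplasmic Y RNA named after its value was seen, went up, from 6.92 and 6.94 to 8.19 and 8.21 (1.27, SE 0.05). It is a short RNA, and the limit of the RNA columns holds for it too.

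Splicing and chromatin regulators held many small falls. Of 42 splicing regulators 22 were lower (52.4%) and 1 higher, with a median of -0.18, and the lower count was 15, 20, 20 and 16 with each array left out. The kinases Clk4 (10.25 and 10.22, then 9.49 and 9.46) and Clk1 (11.40 and 11.35, then 10.78 and 10.80), which switch splicing factors on, differed by -0.76 and -0.59, and Pnisr by -0.72. Srsf2, a core splicing factor, read 12.89 and 12.90 and then 12.86 and 12.84. Of 39 chromatin genes of the Polycomb, trithorax and remodelling groups 17 were lower (43.6%) and 3 higher, with 9, 10, 10 and 10 lower when an array was left out. Chd7, a remodeller, read 10.58 and 10.71 and then 9.84 and 9.77 (-0.84, SE 0.07), and the trithorax methyltransferase Kmt2a 10.35 and 10.25 and then 9.58 and 9.59 (-0.72, SE 0.06). Of 15 DNA methylation genes 7 were lower and 0 higher by limma (7 and 1 at an unadjusted p under 0.05), among them Tet2 (-0.60), Dnmt1 (-0.48) and Tet3 (-0.47). Of 317 zinc finger protein genes 56 were lower (17.7%) and 21 higher, and the lower count was 27, 35, 58 and 27. The large subunit of RNA polymerase II, Polr2a, read 11.83 and 11.81 and then 11.22 and 11.25 (-0.59, SE 0.05). The microRNA processing genes Dicer1 (-0.38) and Dgcr8 (-0.37) were lower.

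The share of genes called lower was greater in longer genes. When 18553 protein-coding genes were split into 5 equal groups by genomic span (RefSeq, GRCm38.p6), those called lower were 2.37% of the shortest group (median span 2.23 kb), then 5.71%, 9.57%, 17% and 26.1% of the longest (median 116 kb). Those called higher were 18.7%, 21.9%, 16.6%, 12.3% and 13%. The median difference ran from 0.08 in the shortest group to -0.02 in the longest, and the median level from 5.78 to 8.36. Across these genes, which are not independent, the rank correlation of span and difference was -0.23, and -0.19 to -0.25 when an array was left out. With dim genes left out (mean below 6) the shares lower were 5.18%, 8.5%, 13.6%, 23.6% and 32.2%. For day 3 against day 0, which shares the day 3 arrays, the median difference ran from -0.06 to 0.04.

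**Figure D5:**
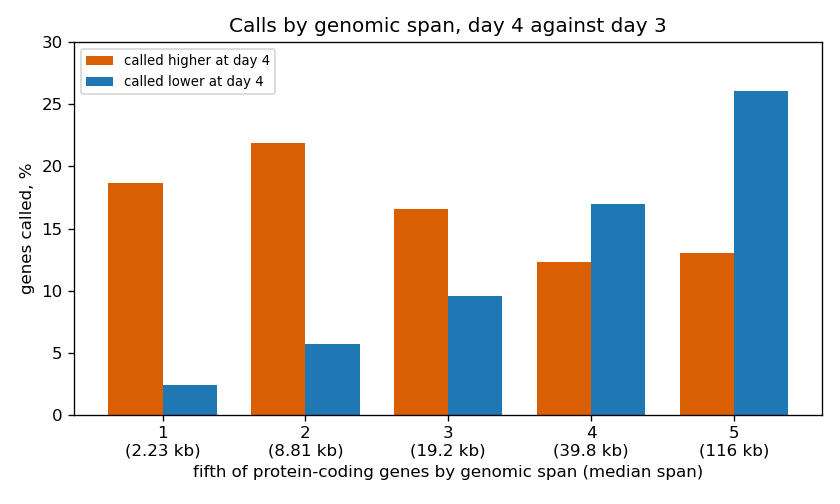
Percent of protein-coding genes called higher or lower at day 4 against day 3, in 5 equal groups by genomic span with the median span of each group in kb. The share called lower grows from 2.37% in the shortest group to 26.1% in the longest.

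Several of the lists above differ in span as well. The share of members longer than the median gene was 96% in the basement membrane list, 82.1% in the chromatin list and 78.4% in the guidance list, all with more members lower than higher, but 91.2% in the collagen list, which had 0 lower. It was 20.5% in the respiratory chain list and 0 in the list of Hox genes 6 to 9. The part of span in these counts was not tested. The 12147 probe sets unnamed here, which were in no test, also leaned to day 3. Of these 1172 were at least 2-fold lower at day 4 (9.65%) and 8 at least 2-fold higher (0.0659%), while among the genes the called counts were 78 and 75. Their array medians (log2) at day 0 were 5.88 and 5.91. They stood at 6.00 and 5.92 after 3 days and 5.60 and 5.59 after 4, while the median difference per probe set was -0.06 and the 10th percentile -0.98.

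Genes of the mitochondrion held small rises. Of 44 respiratory chain genes 17 were higher (38.6%) and 0 lower by limma (27 and 1 at an unadjusted p under 0.05), with a median of 0.17, and the higher count was 6, 13, 12 and 7 with each array left out. Median centring called 15 higher and 1 lower. Ndufa2, a subunit of complex I, read 10.13 and 10.17 and then 10.59 and 10.60 (0.45, SE 0.05), and Ppargc1a, a coactivator that promotes mitochondrial growth, 7.27 and 7.32 and then 8.08 and 7.78 (0.63, SE 0.11). Of 74 mitochondrial ribosomal protein genes 30 were higher (40.5%) and 0 lower by limma (39 and 0 at an unadjusted p under 0.05), with 11, 22, 20 and 14 higher when an array was left out. Of 62 cytosolic ribosomal protein genes 7 were higher (0, 4, 5 and 0 with each array left out) and 2 lower.

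Lipid and stress genes held single strong rises. The fatty acid list had 25.7% higher and 17.1% lower, beside 15.8% and 12.2% over all genes. These shares were 21.9% and 6.25% for immediate early and stress kinase targets and 21.2% and 3.03% for heat shock genes. Fabp4, the fatty acid carrier of fat cells and capillaries, read 7.71 and 7.55 and then 9.13 and 8.94 (1.40, SE 0.08), Angptl4 7.31 and 7.27 and then 8.16 and 7.99 (0.79), and Cpt1a, the gate of mitochondrial fat oxidation, 9.69 and 9.67 and then 10.34 and 10.25 (0.62). The synthesis enzymes Fasn (-0.52) and Acaca (-0.35) were lower. The list of 35 held 9 higher and 6 lower (3, 4, 6 and 3 lower with each array left out), and 8 higher and 9 lower after median centring. Of 32 immediate early and stress kinase targets 7 were higher (4 whichever array of day 3 or day 4 was left out) and 2 lower, led by Gadd45b, which read 7.35 and 7.39 and then 8.46 and 8.40 (1.06, SE 0.07). Of 33 heat shock genes 7 were higher (4, 5, 6 and 5 with each array left out) and 1 lower, with Hspb1 at 9.50 and 9.37 and then 10.19 and 10.21 (0.76, SE 0.06) and the abundant Hspa8 at 13.57 and 13.57 and then 13.52 and 13.52. Of 27 p53 target genes 8 were lower and 3 higher, and the lower count was 2, 3, 4 and 1 with each array left out.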

How the data were processed

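The arrays were 1-colour Affymetrix Mouse Gene 1.0 ST arrays of total RNA. The deposited values are log2 intensities made by the authors with Robust Multichip Average in Partek, per the labels. The labels and the array methods of the study give no version for this step. This step aligns the distributions of the arrays, so changes in the RNA content of a cell are not visible in these values, and it compresses differences between dim signals. Of 35557 probe sets 21789 had exactly 1 gene symbol, 1621 had several and 12147 were unnamed here. The gene number of 21698 was found in RefSeq (GRCm38.p6). The 999 genes with several probe sets took the brightest, which gave 19938 genes. The table held 0 columns of other samples. There is no read depth on arrays, and precision is limited by how many arrays there are.

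Differences were fitted with limma 3.58.1 (lmFit, eBayes; R 4.3.3) over all 6 arrays with a mean for each day, which left 3 residual degrees of freedom and 4.07 prior degrees of freedom. Tests were two-sided, and the Benjamini-Hochberg adjustment ran over the whole set of 19938 genes. Standard errors come from this fit. On simulated data with 19938 genes the fit recovered 66% of changes of 0.5, 96% of changes of 1 and 100% of changes of 2 on the log2 scale. Of its 185 calls 4 were false. The simulation changed far fewer genes than the 5593 called in the data, and its noise was independent between arrays and drawn from the spread within days. Its recovery and false calls therefore need not hold for this comparison.

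The gene lists (67, with 1762 genes measured and 157 of 2101 entries not named in the table), 12 classes by gene name and the tests were chosen with earlier results of these data known. Named genes are the 15 largest rises and falls among called genes whose day 4 arrays both lay beyond both day 3 arrays, skipping predicted genes, receptors of smell and small RNAs, and up to 3 members called in each direction and 2 not called of each list, and 2 each way of each class. Other members, such as the printed microRNAs, the remaining red cell genes, Col1a2, Rny1 and the genes of transmitter signalling and Reln, were picked once their values had been seen. Lists were counted and not tested as sets. Alternatives covered the moderation, the arrays in the fit, the scaling, the filter on dim genes, the probe set rule, a replicate block and each array left out.

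Mature microRNAs, promoters and gene spans were taken from RefSeq tables, which matched 258 of 298 hairpin genes and 15614 of 19938 genes for promoters. Protein sequences and a genome were not used here. Pairing was checked before the block: the deviations of same-numbered arrays from their day means correlated at 0.0342, 0.058 and 0.0834 across genes, so the numbers were not taken to pair the samples.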

Additional observations from a re-analysis of the deposited data

How the results depend on the processing

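The 2-fold counts (75 higher, 78 lower) ranged from 62 to 92 higher and 74 to 101 lower with 1 array left out. The genes called higher ranged from 1355 to 2998 and those called lower from 1370 to 2278, lowest without day 3 replicate 1 and day 4 replicate 2. Leaving out either day 0 array gave the same counts as a fit of the 4 later arrays (2998 and 2278). A replicate block gave 3101 higher and 2368 lower, with 75 and 78 at 2-fold, and since the numbers do not pair the arrays it carries no further weight. Median centring gave 2268 higher and 3081 lower, cyclic loess 2648 and 2810, quantile normalization of the genes 2687 and 2818, trended robust moderation 3837 and 2983, and a mean of 6 or more 3350 and 2624 of 13684 genes. Of 425 named genes that were called, 132 lost the call in at least 1 of 14 alternatives and 0 changed sign. Dim genes limit the rest, since 6254 of 19938 genes had a mean below 6 and 515 of them were called.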
